A study of Mus musculus with 9 samples.

Results

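Expression of 10 serpin genes of clade A (Serpina1a, Serpina1b, Serpina1c, Serpina1d, Serpina1e, Serpina3k, Serpina3m, Serpina3n, Serpina6 and Serpina7) was described in mouse liver. The genes were chosen by name from the 23183 gene symbols of the deposited tables, with earlier results of these data known. All 10 had values above 0 in at least 1 liver, as the choice required. RNA-Seq was performed on liver RNA of 9 male mice of the inbred strain C57BL/6J at postnatal day 100, with 1 library per mouse and 3 mice per group. The ND group (mice 6, 7 and 9) received a normal diet with 14% fat for 10 weeks. The HFD group (mice 1, 2 and 3) received a high-fat diet with 60% fat for 10 weeks. The PRF 50 group (mice 3, 9 and 10) received that same high-fat diet for 10 weeks, and during the last 5 weeks also a daily dose of 50 mg/kg of PRF, a fraction rich in polymethoxyflavones prepared from leaves of the citrus tree Jinkyool. Replicates are separate mice, and equal numbers in 2 groups do not pair animals.

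Serpins are inhibitors that trap a protease by offering it an exposed reactive-centre loop, which the protease cuts before the serpin changes shape and locks it in a complex. Hepatocytes secrete most clade A serpins into plasma. The Serpina1 genes of the mouse encode several forms of alpha-1-antitrypsin, best known as an inhibitor of neutrophil elastase. Whether each mouse form inhibits this protease was not examined here. The Serpina3 genes are an expanded set related to human alpha-1-antichymotrypsin, with Serpina3n known as an acute-phase gene. Serpina6 (corticosteroid-binding globulin) and Serpina7 (thyroxine-binding globulin) have lost inhibitory activity and carry hormones in blood.

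The deposited values were on a log2 scale and were read as log2(FPKM + 1), where FPKM is fragments mapped to a gene, scaled for transcript length and library size, and the added constant of 1 was inferred from a lowest value of 0. Relative depth, estimated from the most common ratio between low values and with HFD mouse 1 set to 1, was 1.17 and 1.6 in HFD mice 2 and 3. It was 1.06, 1.15 and 1.11 in ND mice 6, 7 and 9, and 0.983, 1.52 and 0.963 in PRF 50 mice 3, 9 and 10, so that the groups overlapped in depth. An exact 0 was read only as listed at 0, because the hepatocyte gene Alb was listed at 0 in all 9 livers. The other 9 of 10 hepatocyte markers were above 0 in every mouse, and their summed level lay between 26991 and 37999 FPKM, with Apoa1 the most abundant. In bulk liver RNA, fewer cells of a type and less RNA per cell cannot be told apart.

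In the RefSeq annotation of GRCm38, 9 of the 10 genes lie on chromosome 12, within 768 kb between Serpina6 (chr12:103646630-103657218) and Serpina3n (chr12:104406646-104414334). Serpina7 lies apart from this cluster on the X chromosome (chrX:139079249-139085236). The 5 Serpina1 genes lie side by side on the minus strand in the order Serpina1b, Serpina1d, Serpina1a, Serpina1c and Serpina1e by rising coordinate, and the 3 Serpina3 genes lie on the plus strand. Coding sequences of the Serpina1 genes were 96.3% to 98.7% identical over their 10 pairs (GENCODE M21 transcripts). Those of Serpina3k and Serpina3m were 92.3% identical, and Serpina3n was 83.7% identical to Serpina3k and 85.4% identical to Serpina3m. The other 32 pairs of the 10 genes lay between 62.9% and 67.6%.

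This likeness limits how far reads can be assigned to single genes. The libraries were read as 100-base paired ends, and the share of 100-base windows of each transcript that also occurs in the transcript of another of the 10 genes was therefore counted. Identical windows made up 47.4% of the Serpina1a transcript, 24.6% of Serpina1b, 56.2% of Serpina1c, 26.3% of Serpina1d and 18.2% of Serpina1e. With up to 2 mismatches allowed, the shares were 68.2%, 63.3%, 84.8%, 51.4% and 59.5% in the same order. Serpina3k shared 4.85% of its windows with Serpina3m, and 13.8% with up to 2 mismatches. Serpina6, Serpina7 and Serpina3n shared none with the other 9 genes. Genes outside the 10 also share windows. All 5 Serpina1 genes share identical windows with Gm8893, which raises the share of Serpina1d from 26.3% to 29.3%, and Serpina3n shares 0.204% with Serpina3e-ps and Serpina3g. The annotation adds overlaps, since one Serpina1b gene model of GENCODE extends across Serpina1d, and one of Serpina3m starts at Serpina3k. How reads that fit several genes were counted is not given in the sources used here, so values of single Serpina1 genes and of Serpina3k and Serpina3m are uncertain in this respect.

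**Figure D1:**
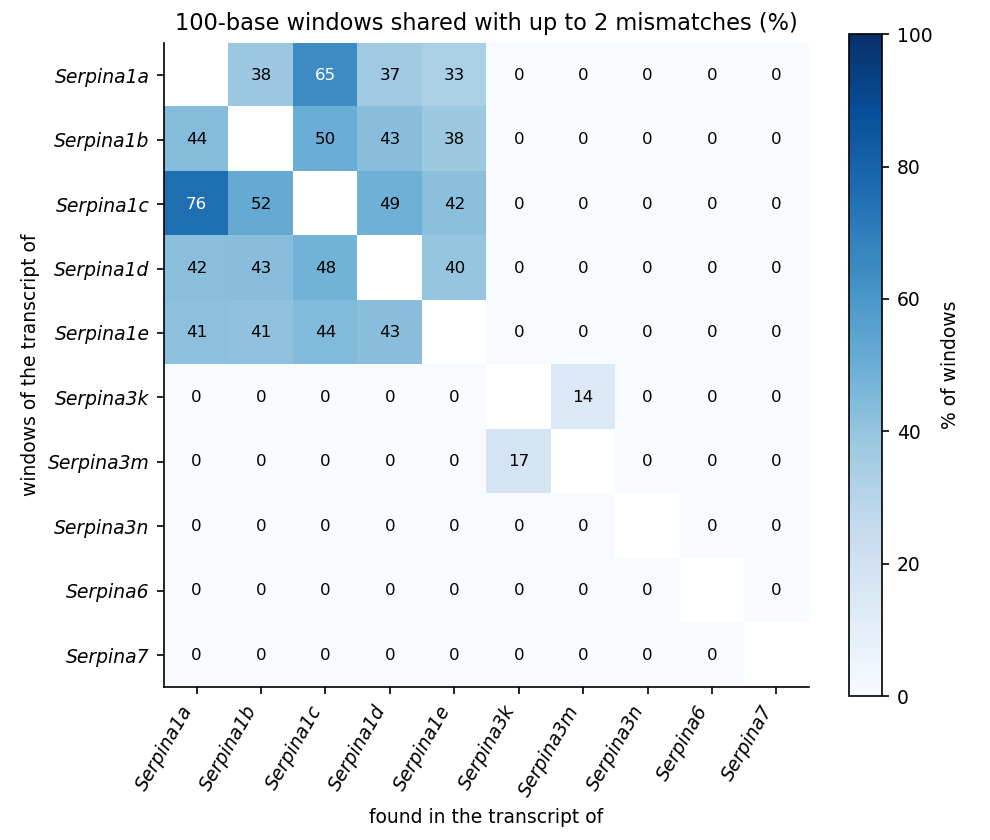
Percent of the 100-base windows of each gene's main transcript (rows) that occur with up to 2 mismatches in the main transcript of another of the 10 genes (columns). The 5 Serpina1 genes form a block, led by Serpina1c windows found in Serpina1a (75.9%), and Serpina3k and Serpina3m form a smaller one.

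The 60-base coding stretch within 1 exon in which Serpina1e differs most from its 4 paralogs is printed here, because only reads over such bases can tell Serpina1e from the rest. It lies in the last exon of the coding sequence, at bases 1127 to 1186 of 1239 in Serpina1e. The stretch is at chr12:103947074-103947133 in Serpina1e, chr12:103853731-103853790 in Serpina1a, chr12:103728298-103728357 in Serpina1b, chr12:103895068-103895127 in Serpina1c and chr12:103763736-103763795 in Serpina1d (GRCm38, minus strand, exon 5 of 5, or exon 6 of 6 in Serpina1a). Capitals in the paralogs mark bases that differ from Serpina1e, and capitals in Serpina1e mark bases that differ from at least 1 paralog.
Serpina1e: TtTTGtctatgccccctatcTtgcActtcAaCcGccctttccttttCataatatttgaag
Serpina1a: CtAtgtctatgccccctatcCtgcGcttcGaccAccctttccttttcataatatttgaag
Serpina1b: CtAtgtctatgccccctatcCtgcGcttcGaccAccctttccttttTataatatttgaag
Serpina1c: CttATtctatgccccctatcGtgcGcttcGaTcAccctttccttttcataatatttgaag
Serpina1d: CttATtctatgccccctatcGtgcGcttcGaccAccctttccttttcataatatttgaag
Serpina1a differed from Serpina1e at 6 of the 60 bases, Serpina1b and Serpina1d at 7 each, and Serpina1c at 8.

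On the per-length FPKM scale, Serpina3k had the highest mean level of the 10 genes in all 3 groups. In ND livers it reached 5709 ± 303 FPKM (SD, n = 3). Serpina1e (3449 ± 784), Serpina1b (3345 ± 308) and Serpina1c (2939.9 ± 789) followed and overlapped one another. Serpina1d (2351 ± 263) overlapped Serpina1c but lay below every value of Serpina1b, and Serpina1a (1315 ± 325) lay below every value of Serpina1d. The transport genes and the smaller Serpina3 genes were far lower, with Serpina6 at 205 ± 85.0, Serpina3m at 151 ± 15.3, Serpina3n at 122 ± 12.2 and Serpina7 at 34.5 ± 5.63 FPKM. In HFD livers Serpina1e stood in place 8 of 10, at 279 ± 229 FPKM. In PRF 50 livers it was again in place 2, at 4338 ± 1720 FPKM.

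**Figure D2:**
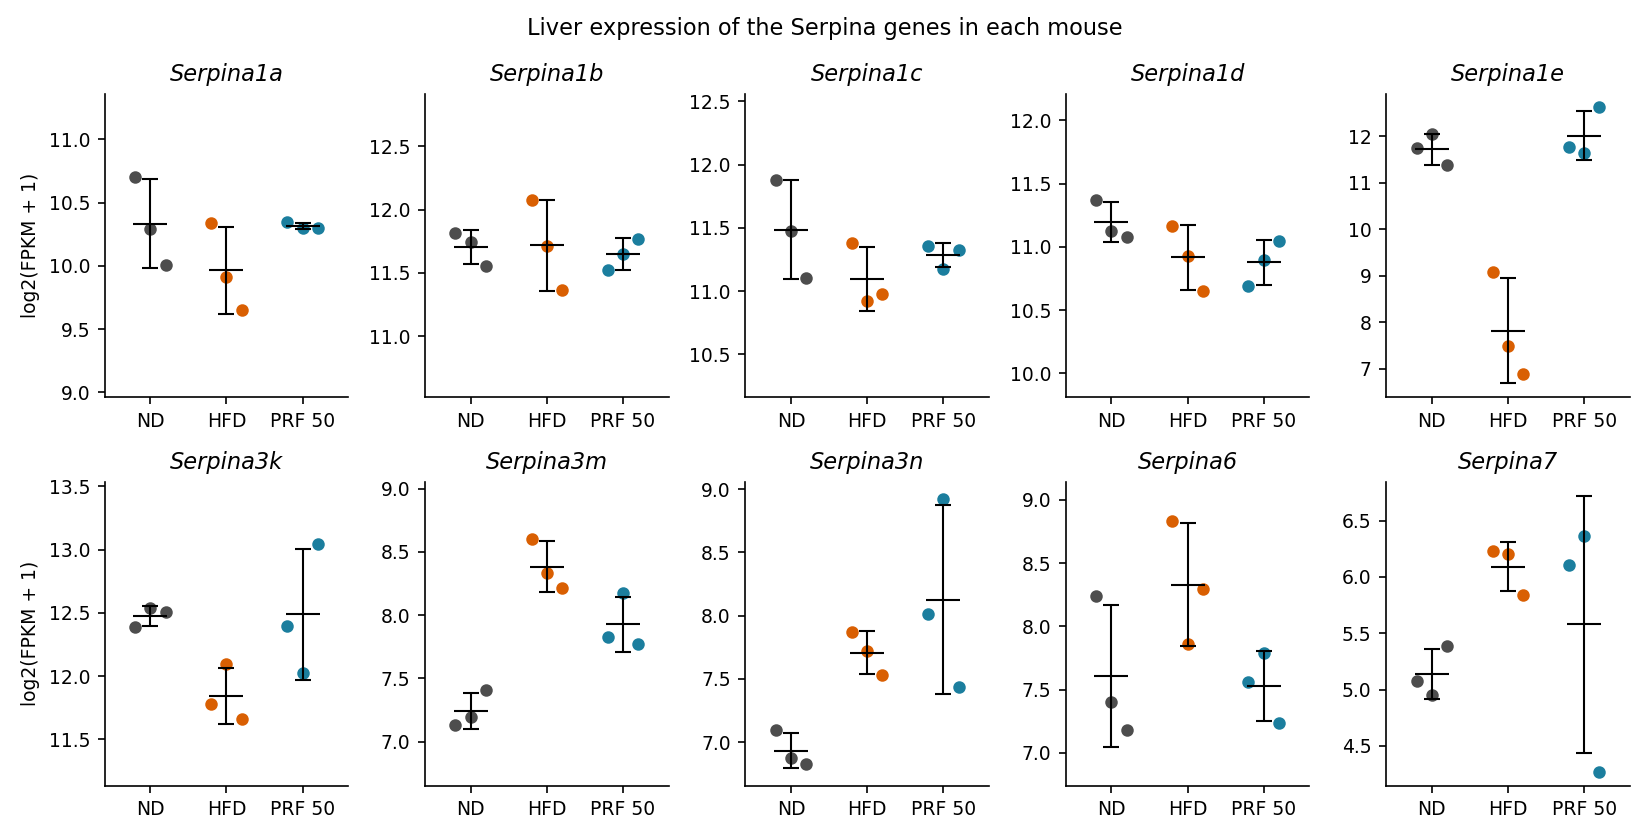
Expression of the 10 genes in each liver, as log2(FPKM + 1), with 1 panel and 1 vertical axis range per gene. Points are mice, and bars give the mean ± SD (n = 3 per group); in Serpina1e the 3 HFD mice lie at or below 9.08 and the other 6 mice at or above 11.38.

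Serpina1e carried the largest change among the 10 genes. Its log2 values were 11.75, 12.05 and 11.38 in ND mice 6, 7 and 9. In HFD mice 1, 2 and 3 they were 9.08, 7.49 and 6.89, and in PRF 50 mice 3, 9 and 10 they were 11.78, 11.64 and 12.62. Every HFD mouse lay below every ND and every PRF 50 mouse, while ND and PRF 50 overlapped. The HFD mice also varied most, with an SD of 1.13 against 0.33 in ND and 0.53 in PRF 50. By rank among all 23183 symbols, Serpina1e was between place 14 and 25 in ND mice, between 192 and 674 in HFD mice, and between 9 and 23 in PRF 50 mice.

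Between the 6 mice of 2 groups, each gene with a mean of at least 1 FPKM was tested with limma on the log2 values, with Benjamini-Hochberg adjustment over all genes tested. In HFD vs. ND, Serpina1e fell by 3.91 ± 0.50 on the log2 scale (SE, adjusted p = 0.0140), a 15-fold lower level with a 95% confidence interval of 6.75 to 33.4. Against HFD, the PRF 50 group was 4.20 ± 0.54 higher (adjusted p = 0.0170), an 18.3-fold difference with an interval of 7.57 to 44.4. The 2 comparisons share the HFD mice, so their opposite signs are not independent. Against ND, its log2 difference was 0.29 ± 0.30 with an interval of -0.41 to 0.99 (limma, adjusted p = 0.724). This last value turned to -0.0185 without PRF 50 mouse 10 and was 0.47 without PRF 50 mouse 9. The log2 difference stayed between 3.73 and 4.83 for PRF 50 vs. HFD and between -4.54 and -3.44 for HFD vs. ND under all alternatives, but its adjusted p did not always stay under 0.05. For PRF 50 vs. HFD it was 0.0677 without HFD mouse 2, 0.0529 without HFD mouse 3 and 0.0530 without PRF 50 mouse 3, in a range of 0.00345 to 0.0677 over all alternatives. For HFD vs. ND it was 0.0539 without HFD mouse 2, 0.0555 without ND mouse 6 and 0.0688 without ND mouse 7, and 0.0684 when no minimum level was set, in a range of 0.00173 to 0.0688.

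Counts over the 10 genes were read against those over all genes tested, although the 10 were chosen with earlier results of these data known. In HFD vs. ND, 4 of 10 were called at an adjusted p under 0.05 (1 lower, Serpina1e, and 3 higher, Serpina3m, Serpina3n and Serpina7), against 1.33% of 9978 genes. For PRF 50 vs. HFD, 1 of 10 was called (Serpina1e), against 3.59% of 10084 genes. For PRF 50 vs. ND, limma called 0 of 10, with 2 at an unadjusted p under 0.05, against 0.458% of 10051 genes called. Over all genes, unadjusted p was under 0.05 for 15.1% in HFD vs. ND, 20.2% in PRF 50 vs. HFD and 12.5% in PRF 50 vs. ND. Counts given for lists, called or at unadjusted p, are to be read beside these shares and those of genes called. Where fold changes above 2 were required together with unadjusted p below 0.05, the counts were 2 (Serpina1e and Serpina3m), 1 (Serpina1e) and 1 (Serpina3n) in the same order, against 1.34%, 2.1% and 1.76% of genes. Groups did not overlap for 5 of 10 genes in HFD vs. ND, against 20.7% of genes. They did not overlap for 3 of 10 in PRF 50 vs. HFD, against 26.2%, and for 3 of 10 in PRF 50 vs. ND, against 19.9%. The median log2 difference of the 10 genes was -0.13, 0.08 and 0.00 in the 3 comparisons, against -0.01, -0.02 and -0.03 over all genes. Called counts moved when mice were left out, to between 0 and 3 in HFD vs. ND and to 0 in PRF 50 vs. HFD without HFD mouse 2, HFD mouse 3 or PRF 50 mouse 3.

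**Figure D3:**
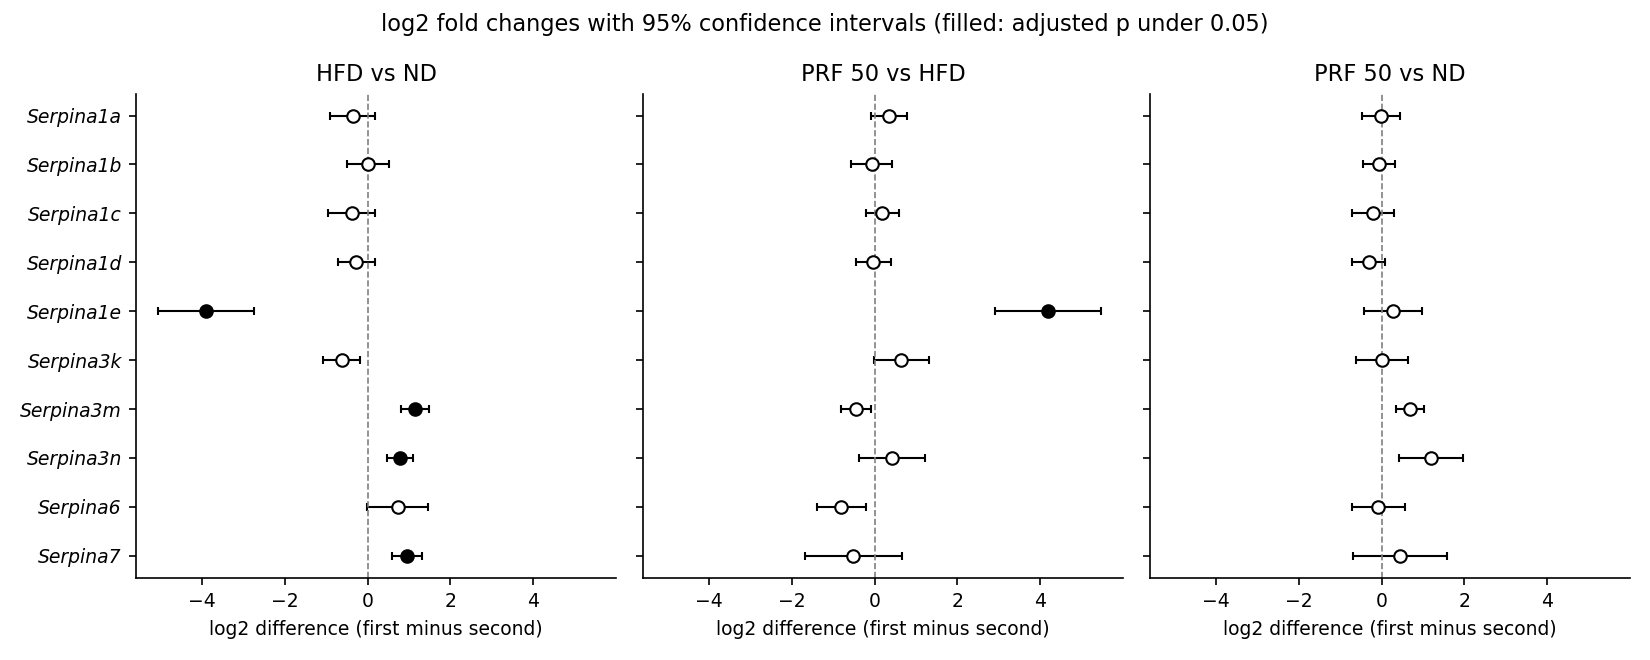
log2 differences of the 10 genes (points, first group minus second) with 95% confidence intervals in the 3 comparisons (3 mice against 3), filled where the adjusted p was under 0.05. Serpina1e lies at -3.91 in HFD vs. ND and at 4.20 in PRF 50 vs. HFD, and all other points lie between -0.80 and 1.19.

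The 4 other alpha-1-antitrypsin genes did not pass the test in any comparison. Serpina1b had log2 values of 11.81, 11.74 and 11.55 in ND mice 6, 7 and 9, of 12.07, 11.71 and 11.36 in HFD mice 1, 2 and 3, and of 11.52, 11.65 and 11.77 in PRF 50 mice 3, 9 and 10, with all groups overlapping. Over Serpina1a, Serpina1b, Serpina1c and Serpina1d, log2 differences lay between -0.39 and 0.01 in HFD vs. ND and between -0.07 and 0.35 in PRF 50 vs. HFD. Even the widest 95% interval of these, that of Serpina1c in HFD vs. ND, ran only from -0.95 to 0.17, and so did not reach the change of Serpina1e. A difference in groups without overlap was seen once among the 4 genes, for Serpina1d, which lay lower in PRF 50 than in ND (-0.32 ± 0.17, limma, adjusted p = 0.488). The sign of the small Serpina1b difference in HFD vs. ND turned without HFD mouse 1 (-0.17) and without ND mouse 9 (-0.06).

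Because reads can be shared, the 5 genes were also added up, without Gm8893. Summed FPKM were 15128, 14013 and 11061 in ND mice 6, 7 and 9, then 11118, 8384 and 7178 in HFD mice 1, 2 and 3, and 12022, 11889 and 15744 in PRF 50 mice 3, 9 and 10. The HFD mice were at or below the lowest ND mouse apart from HFD mouse 1, which lay just above it, and all PRF 50 mice lay above all HFD mice. Without Serpina1e, the sums of the remaining 4 genes averaged 9952 ± 1656 FPKM in ND, 8615 ± 1794 in HFD and 8880.5 ± 483 in PRF 50 (SD, n = 3), and the groups overlapped. Serpina1e made up 25.7% of the sum on average in ND, 2.87% in HFD and 32.0% in PRF 50. The share of Serpina1b moved the other way, from 25.1% in ND to 38.5% in HFD and 24.6% in PRF 50, although its own level was 3345, 3431 and 3217 FPKM.

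**Figure D4:**
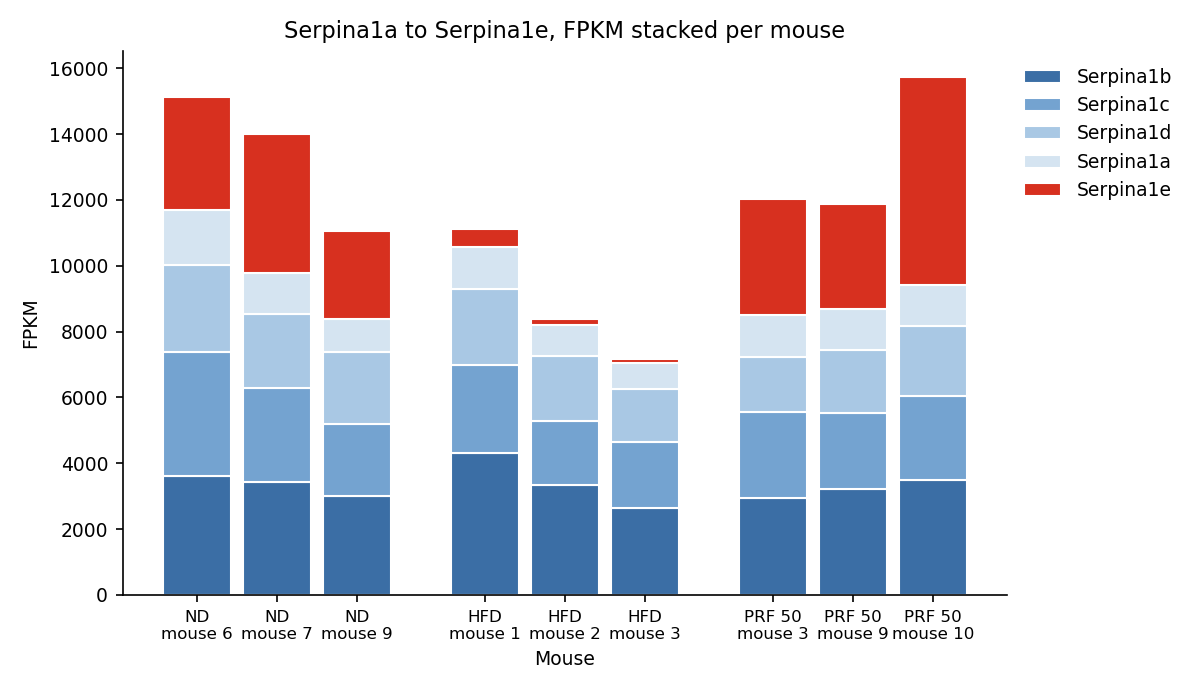
FPKM of the 5 Serpina1 genes stacked for each of the 9 livers, with the bar height giving their sum. The red segment (Serpina1e) is 1.64% to 4.86% of the bar in HFD mice and 22.7% to 40.1% in ND and PRF 50 mice.

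The sequence before the start of each Serpina1 gene was compared, because Serpina1e changed and its 4 neighbours did not pass the test. RefSeq promoter windows (GRCm38.p6, 250 bases before to 50 after an annotated transcript start) were given for 7 of the 10 genes, and not for Serpina3k, Serpina3m and Serpina6. The stretch shared by all 5 windows, up to the first annotated start among the 4 paralogs, is at chr12:103956960-103957147 for Serpina1e, chr12:103863625-103863812 for Serpina1a, chr12:103738200-103738389 for Serpina1b, chr12:103904962-103905149 for Serpina1c and chr12:103773634-103773822 for Serpina1d, all on the minus strand and outside annotated exons of the 10 genes. In GENCODE it falls in an intron of longer transcripts of Serpina1e and Serpina1b, and that of Serpina1d falls in an intron of Serpina1b. Capitals in the paralogs mark bases that differ from Serpina1e or are added to it, and the capital in Serpina1e marks the base that differs in Serpina1a, Serpina1b and Serpina1c and is missing from Serpina1d in the alignment.
Serpina1e: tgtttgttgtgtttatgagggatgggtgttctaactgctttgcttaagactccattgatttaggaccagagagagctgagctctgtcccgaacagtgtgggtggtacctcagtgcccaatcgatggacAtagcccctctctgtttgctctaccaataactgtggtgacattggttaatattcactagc
Serpina1a: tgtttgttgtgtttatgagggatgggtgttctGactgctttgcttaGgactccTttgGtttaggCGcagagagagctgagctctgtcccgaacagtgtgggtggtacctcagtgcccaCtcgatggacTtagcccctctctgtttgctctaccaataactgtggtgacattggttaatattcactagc
Serpina1b: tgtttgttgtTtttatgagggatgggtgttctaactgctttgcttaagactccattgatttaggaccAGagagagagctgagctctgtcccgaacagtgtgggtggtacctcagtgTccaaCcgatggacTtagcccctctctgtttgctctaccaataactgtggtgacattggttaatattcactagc
Serpina1c: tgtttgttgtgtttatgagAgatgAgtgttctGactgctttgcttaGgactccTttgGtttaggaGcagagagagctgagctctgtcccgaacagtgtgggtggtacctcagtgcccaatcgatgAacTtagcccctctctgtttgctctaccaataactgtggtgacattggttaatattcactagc
Serpina1d: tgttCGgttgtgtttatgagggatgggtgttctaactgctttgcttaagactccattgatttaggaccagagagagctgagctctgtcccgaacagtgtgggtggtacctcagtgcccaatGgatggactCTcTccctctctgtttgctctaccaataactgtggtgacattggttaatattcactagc
Of the 188 bases of Serpina1e, between 179 and 184 were identical in each paralog, and 1 had no identical base in any of the 4. Each stretch holds GTTAAT once, the core of the sequence bound by HNF1 factors, near its end. Searched on both strands, GTTAAT occurred in the windows of 6 of the 7 genes (all but Serpina3n) and in 7.1% of 32851 RefSeq promoter windows. TTCNNNGAA, the core sequence bound by STAT factors, occurred in 0 of 7 and in 8.3% of all. TTNNGNAAT, letters of the C/EBP type, occurred in 3 of 7 (Serpina1a, Serpina3n and Serpina7) and in 11.5% of all. The only Serpina1a match to TTNNGNAAT lies past the annotated start. The Serpina3n window reaches into the RefSeq gene, and 1 of its 2 matches lies past the gene's first base. No match of 1 motif overlapped a match of another in these windows, and a match describes letters only.

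The 5 genes whose mean-centred log2 values over the 9 mice differed least from those of Serpina1e were sought among 10038 genes that reached the minimum level. They were Hsd3b5 (a steroid dehydrogenase, root mean square difference 0.72), Selenbp2 (a selenium-binding protein, 0.83), Gstp1 (a glutathione transferase, 1.09), Cib3 (a calcium-binding protein, 1.11) and Egfr (the receptor of epidermal growth factor, 1.29), against a median of 2.02 over all genes. Hsd3b5 had log2 values of 7.30, 6.93 and 7.54 in ND mice 6, 7 and 9, of 5.53, 4.65 and 3.57 in HFD mice 1, 2 and 3, and of 7.39, 6.79 and 8.0 in PRF 50 mice 3, 9 and 10. Its change was smaller than that of Serpina1e, with a log2 difference of -2.68 in HFD vs. ND and of 2.81 in PRF 50 vs. HFD (limma, adjusted p = 0.0315 and 0.0336). Because Hsd3b5 was picked for its pattern over these same mice, its p-values are no separate test of that pattern.

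Hsd3b5, Selenbp2, Gstp1 and Egfr also belong to a list of 14 genes known to be expressed at a higher level in male than in female mouse liver. In HFD vs. ND, 7 of the 13 tested were called lower and 0 higher, against 1.33% of all genes called in either direction. The median log2 difference of the 13 was -1.23 against -0.01 over all genes. Of all 14 tested in PRF 50 vs. HFD, 8 were called higher and 0 lower, against 3.59% of all genes, with a median of 1.39 against -0.02. Between PRF 50 and ND, 2 were called higher and 1 lower, against 0.458% of all genes, with a median of 0.14. Hsd3b5, Selenbp2, Gstp1 and Egfr, picked by their pattern, are 4 of the 7 and 4 of the 8 calls. The list was also chosen with earlier results of these data known. The authors listed Hsd3b5, Mup20, Moxd1, Selenbp2, Cyp4a12a, Cyp7b1, Gstp1, Egfr and C6 as differentially expressed between PRF 50 and HFD livers. The counts and medians of the list are therefore no separate test of it. Moxd1, a monooxygenase-like gene called higher in both comparisons with PRF 50, reached the minimum level only through that group, where its mean log2 value was 4.19 against 0 in HFD and 0.15 in ND. Among the 14 genes, C6 (a complement component) had log2 values of 5.63, 5.69 and 5.78 in ND, 4.61, 4.49 and 4.32 in HFD and 6.50, 6.46 and 6.45 in PRF 50, with no overlap between any 2 groups. Its log2 difference was -1.23 in HFD vs. ND and 1.99 in PRF 50 vs. HFD (limma, adjusted p = 0.00395 and 0.000293). Cyp7b1, an oxysterol hydroxylase, fell by 1.19 in HFD vs. ND and was 1.27 higher in PRF 50 vs. HFD (limma, adjusted p = 0.00731 and 0.0414). Cyp4a12b had the largest fall of the list in HFD vs. ND (-3.64, limma, adjusted p = 0.00940). It was also the member called lower in PRF 50 vs. ND (-2.28, limma, adjusted p = 0.0441). Elovl3 and Cyp4a12a did not pass, with -1.18 and -1.31 in HFD vs. ND and -1.23 and -2.22 in PRF 50 vs. ND. In PRF 50 vs. HFD, 11 of the 14 were higher, but not Elovl3 (-0.04), Cyp2d9 (-0.09) and Cyp4a12a (-0.91).

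Male-type expression in mouse liver depends on pulses of growth hormone, and genes of that axis were listed as well. Of 9 tested in HFD vs. ND, 2 were called, both lower, namely the STAT5 targets Cish (log2 difference -1.96, limma, adjusted p = 0.0318) and Socs2 (-1.17, adjusted p = 0.0331). In both other comparisons limma called 0 of 9, with 1 and 2 at an unadjusted p under 0.05 in PRF 50 vs. HFD and PRF 50 vs. ND. Cish was 1.85, 1.41 and 3.33 in PRF 50 mice 3, 9 and 10, against 2.34, 2.32 and 1.14 in HFD mice 1, 2 and 3. Socs2 was 2.62, 2.66 and 3.59 in the same PRF 50 mice, against 1.98, 2.56 and 2.34 in the HFD mice. All PRF 50 mice thus lay above all HFD mice for Socs2 (log2 difference 0.66 ± 0.28, limma, adjusted p = 0.235), while Cish overlapped. The median log2 difference of the list was 0.06, 0.02 and -0.03 in HFD vs. ND, PRF 50 vs. HFD and PRF 50 vs. ND.

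**Figure D5:**
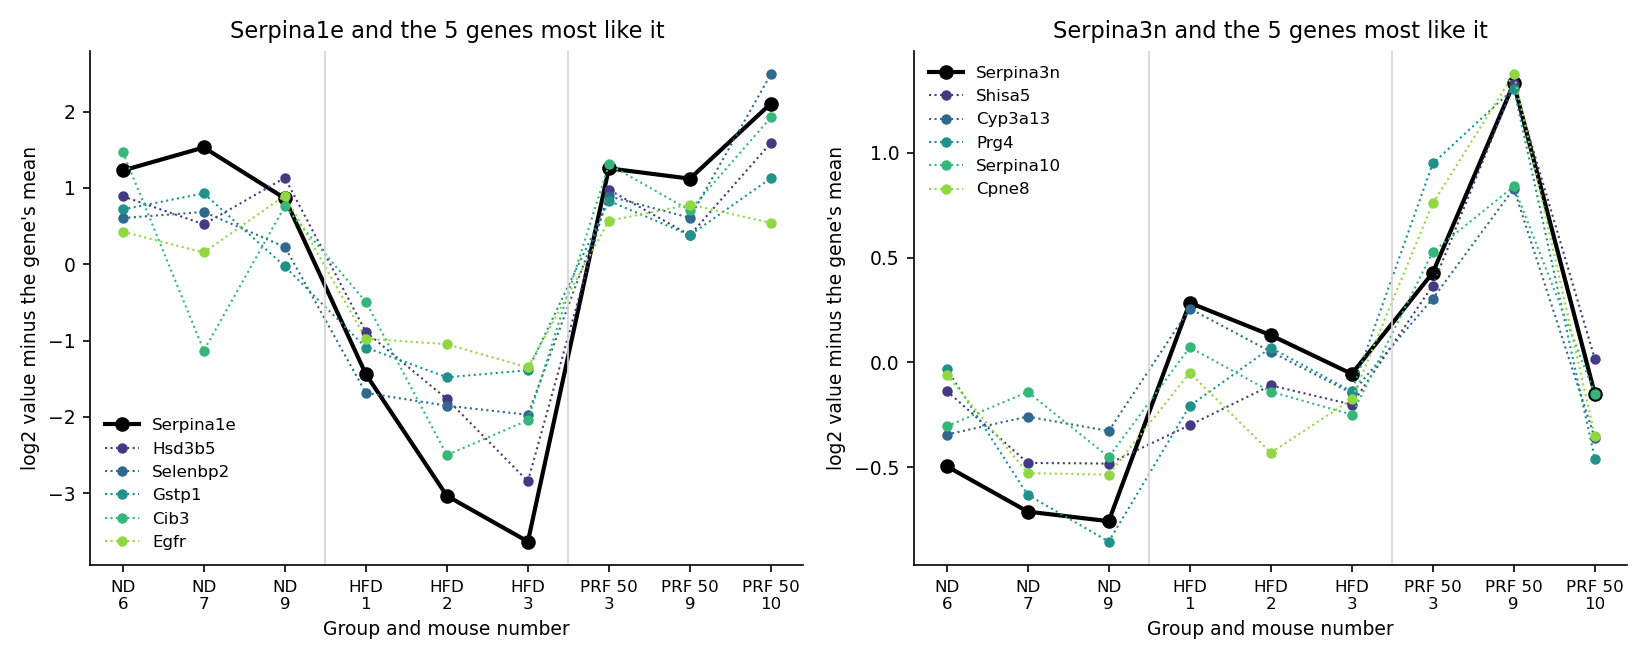
log2 values minus each gene's mean over the 9 mice for Serpina1e (left) and Serpina3n (right), each with the 5 genes of most similar pattern; lines join mice only to guide the eye. The genes were chosen for this likeness; Serpina1e, Hsd3b5, Selenbp2, Gstp1 and Egfr are lower in all HFD than in all other mice, Cib3 overlaps between HFD and ND (log2 difference -2.04 ± 0.70), and all 6 genes on the right are highest in PRF 50 mouse 9.

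Of the Serpina3 genes, Serpina3m and Serpina3n were called higher in HFD vs. ND. Serpina3m, an antichymotrypsin-like inhibitor, had log2 values of 7.14, 7.19 and 7.41 in ND mice 6, 7 and 9, of 8.60, 8.34 and 8.21 in HFD mice 1, 2 and 3, and of 7.83, 8.18 and 7.77 in PRF 50 mice 3, 9 and 10. No 2 groups overlapped, with ND lowest, PRF 50 between and HFD highest. It was 1.14 ± 0.14 higher in HFD than in ND (limma, adjusted p = 0.0140), or 2.20-fold with an interval of 1.75 to 2.77. The call was lost without HFD mouse 2 (adjusted p = 0.0590) and without ND mouse 7 (0.0726), in a range of 0.00955 to 0.0726. PRF 50 differed from HFD by -0.46 ± 0.15 and from ND by 0.68 ± 0.15 (limma, adjusted p = 0.155 and 0.108), and neither passed the test.

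Serpina3k, also named contrapsin and the most abundant of the 10 genes, did not pass the test. Its log2 values were 12.39, 12.54 and 12.51 in ND mice 6, 7 and 9, then 11.78, 12.09 and 11.66 in HFD mice 1, 2 and 3, and 12.39, 12.02 and 13.05 in PRF 50 mice 3, 9 and 10. HFD mice lay below all ND mice, with a log2 difference of -0.63 ± 0.19 (limma, adjusted p = 0.192), and overlapped PRF 50 mice through HFD mouse 2. Summed FPKM of Serpina3k, Serpina3m and Serpina3n averaged 5981 ± 299 in ND, 4252.0 ± 599 in HFD and 6551 ± 2052 in PRF 50 (SD, n = 3). Serpina3k made up 95.4%, 87.1% and 90.6% of these sums, while Serpina3m made up 2.53%, 7.97% and 4.06%. The sum therefore followed Serpina3k, and the higher Serpina3m of HFD mice did not show in it.

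Serpina3n, an inhibitor induced in the acute-phase response, had log2 values of 7.09, 6.88 and 6.83 in ND mice 6, 7 and 9. They were 7.87, 7.72 and 7.53 in HFD mice 1, 2 and 3, and 8.02, 8.92 and 7.44 in PRF 50 mice 3, 9 and 10. All 6 mice on high-fat diet lay above all ND mice, and PRF 50 mice spread from below the lowest to above the highest HFD mouse. It was 0.77 ± 0.13 higher in HFD than in ND (limma, adjusted p = 0.0376), or 1.71-fold. That call depended on the processing. It was lost without HFD mouse 1, 2 or 3 (adjusted p = 0.0777, 0.154 and 0.0952), without ND mouse 6, 7 or 9 (0.0516, 0.158 and 0.0928), with all 9 mice in 1 fit (0.246) and with no minimum level (0.0909), in a range of 0.0105 to 0.246. PRF 50 vs. ND had a larger log2 difference, 1.19 ± 0.33, with adjusted p = 0.191 by limma and a fold change of 2.28, and PRF 50 vs. HFD had 0.42 ± 0.34 (adjusted p = 0.546). Single PRF 50 mice moved both values. Without mouse 9 they were 0.79 and 0.02, and without mouse 10 they were 1.53 and 0.76, in the same order, and neither comparison was called under any alternative.

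The genes with the pattern most similar to Serpina3n over the 9 mice were Shisa5 (root mean square difference 0.28), Cyp3a13 (0.29), Prg4 (0.31), Serpina10 (0.31) and Cpne8 (0.31), against a median of 0.65. None of these 5 was called in any of the 3 comparisons by limma.

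Acute-phase proteins were listed apart from the serpins. Of 22 tested in HFD vs. ND, 3 were called higher and 0 lower, with a median log2 difference of 0.30 against -0.01 over all genes. These were Lcn2 (lipocalin 2, log2 difference 2.29, limma, adjusted p = 0.0309), Steap4 (a metalloreductase, 0.57, adjusted p = 0.0330) and Il1rn (the interleukin 1 receptor antagonist, 0.95, adjusted p = 0.0332). In HFD vs. ND, 10 of the 22 had an unadjusted p under 0.05 by limma, and 17 were higher. Groups did not overlap for 9 of them, against 20.7% of all genes. Orm1 was lower in all HFD than in all ND mice (-0.82, limma, adjusted p = 0.0914). With PRF 50 compared to HFD and to ND, limma called 0 of 22, with 5 and 9 at an unadjusted p under 0.05, and medians of 0.73 and 1.01. Lcn2 was 9.57, 7.39 and 2.17 in PRF 50 mice 3, 9 and 10, against 1.78, 2.87 and 1.74 in ND mice 6, 7 and 9. The PRF 50 mice thus split, with mouse 10 in the ND range for Lcn2 and lowest of its group for Serpina3n. Genes of IL-6 signaling, which induces many acute-phase genes, had 0 of 8 called by limma in each comparison (2, 1 and 1 at an unadjusted p under 0.05 in PRF 50 vs. HFD, HFD vs. ND and PRF 50 vs. ND). Cebpb and Il6st, the most abundant of them, differed by 0.46 and 0.29 in PRF 50 vs. HFD.

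Serpina6, the carrier of glucocorticoids in blood, was the member with the widest spread in ND livers on the log2 scale. Its values were 8.24, 7.40 and 7.18 in ND mice 6, 7 and 9, then 8.83, 7.86 and 8.30 in HFD mice 1, 2 and 3, and 7.56, 7.79 and 7.24 in PRF 50 mice 3, 9 and 10. HFD mice lay above all PRF 50 mice and overlapped ND mice through ND mouse 6. The log2 difference was -0.80 ± 0.25 in PRF 50 vs. HFD and 0.72 ± 0.32 in HFD vs. ND (limma, adjusted p = 0.136 and 0.343), so neither passed. Single mice moved the value of HFD vs. ND, to 0.47 without HFD mouse 1 and to 1.04 without ND mouse 6. In the list of glucocorticoid handling and target genes, 1 of 10 was called in PRF 50 vs. HFD and 1 of 10 in HFD vs. ND, both lower. Both encode steroid reductases. Akr1d1 fell by 0.56 in PRF 50 vs. HFD and Srd5a1 fell by 0.97 in HFD vs. ND (limma, adjusted p = 0.0411 and 0.00770). Between PRF 50 and ND limma called 0 of 10. By limma, 4 of 10 had an unadjusted p under 0.05 in PRF 50 vs. HFD, 3 in HFD vs. ND and 0 in PRF 50 vs. ND. Groups did not overlap for 4, 3 and 1 of the 10 in the same order, against 26.2%, 20.7% and 19.9% of all genes. Medians of the list were 0.31, -0.01 and 0.11 in PRF 50 vs. HFD, HFD vs. ND and PRF 50 vs. ND.

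Serpina7, the carrier of thyroxine encoded on the X chromosome, was the least abundant of the 10 genes. Its log2 values were 5.08, 4.95 and 5.38 in ND mice 6, 7 and 9, then 6.23, 6.21 and 5.84 in HFD mice 1, 2 and 3, and 6.11, 6.36 and 4.27 in PRF 50 mice 3, 9 and 10. HFD mice lay above all ND mice, and PRF 50 mice 3 and 9 lay among or above the HFD values while mouse 10 lay below every ND mouse. It was 0.96 ± 0.16 higher in HFD than in ND (limma, adjusted p = 0.0330), or 1.94-fold with an interval of 1.51 to 2.49. The call was lost without HFD mouse 1, 2 or 3 (adjusted p = 0.0749, 0.127 and 0.0537), without ND mouse 6 or 7 (0.0863 and 0.131), with all 9 mice in 1 fit (0.340) and with no minimum level (0.0939), in a range of 0.0237 to 0.340. Between PRF 50 and HFD the difference was -0.51 ± 0.50, and it turned to 0.14 without PRF 50 mouse 10. Against ND it was 0.44 ± 0.49 with all mice (limma, adjusted p = 0.738) and 1.10 without PRF 50 mouse 10 (adjusted p = 0.0493), in a range of 0.0493 to 0.986 over the alternatives.

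Genes of thyroid hormone transport and response were read beside it. Dio1, the deiodinase that activates thyroxine in liver and a thyroid hormone target, was 1.49 ± 0.19 higher in HFD than in ND and 1.26 ± 0.19 higher in PRF 50 than in ND (limma, adjusted p = 0.0140 and 0.0453). Its values were 5.57, 5.81 and 6.34 in ND, 7.36, 7.33 and 7.48 in HFD and 7.16, 7.22 and 7.12 in PRF 50 mice. Unlike Serpina7, Dio1 in PRF 50 mouse 10 was close to the other PRF 50 mice. Of 8 genes in PRF 50 vs. HFD, 1 was called higher (Slc16a10, a thyroid hormone and amino acid transporter, 0.59, adjusted p = 0.0249) and 1 lower (Thrsp, a lipogenic thyroid hormone target, -1.97, limma, adjusted p = 0.0133). For each of HFD and PRF 50 against ND, 1 of 8 was called, Dio1. By limma, 7 of 8 had an unadjusted p under 0.05 in PRF 50 vs. HFD, 4 in HFD vs. ND and 3 in PRF 50 vs. ND. Groups did not overlap for 7, 4 and 3 of the 8 in the same order, against 26.2%, 20.7% and 19.9% of all genes. Medians were -0.28, 0.28 and -0.02 in PRF 50 vs. HFD, HFD vs. ND and PRF 50 vs. ND.

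Of 16 other clade A serpins, 15 were in the tables (not Serpina16), 14 were above 0 in at least 1 liver (not Serpina1f) and 6 reached the minimum level. Serpina4-ps1, a pseudogene, was the only one of the 6 called, in HFD vs. ND (log2 difference -2.81 ± 0.45, limma, adjusted p = 0.0309). Its log2 values were 4.71, 3.36 and 5.28 in ND, 2.11, 1.31 and 1.49 in HFD and 1.77, 1.44 and 4.90 in PRF 50 mice 3, 9 and 10, so that only PRF 50 mouse 10 was within the ND range. Serpina10 (the protein Z-dependent inhibitor of clotting factor Xa) lay between 6.62 and 7.91 over the 9 mice, Serpina11 between 4.81 and 6.01 and Serpina12 (vaspin) between 3.48 and 5.21. Serpina11 was higher in all PRF 50 mice than in the other 6 mice (0.60 against HFD and 0.53 against ND, limma, adjusted p = 0.140 and 0.172). Serpina3f and Serpina3g stayed at or below 3.40, and Serpina3a, Serpina3b, Serpina3c, Serpina3h, Serpina3i, Serpina3j, Serpina5 and Serpina9 at or below 0.81. The median log2 difference of the 6 was 0.61 in PRF 50 vs. HFD, -0.08 in HFD vs. ND and 0.53 in PRF 50 vs. ND.

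Other secreted protease inhibitors of liver had 1 of 19 called, Serpine2 (protease nexin 1), which fell by 0.80 in HFD vs. ND (limma, adjusted p = 0.0330). The test of PRF 50 vs. HFD with limma called 0 of 19, with 3 at an unadjusted p under 0.05 and a median log2 difference of 0.31, and in PRF 50 vs. ND 0 of 19, with 2 and a median of 0.18. Of 10 proteases that clade A serpins inhibit, 5 were tested in PRF 50 vs. HFD and 0 were called by limma (2 at an unadjusted p under 0.05). Proc (protein C) and Klkb1 (plasma kallikrein), the most abundant, differed by 0.04 and 0.13. Of the granule proteases of neutrophils, Prtn3 was 3.77, 4.76 and 0.84 in PRF 50 mice 3, 9 and 10 and at most 0.52 in the other 6 mice. It reached the minimum level only through the PRF 50 group and is 1 of the 5 proteases tested there. Ctsg stayed at or below 0.12 and Elane at or below 0.56 in all 9 mice. In HFD vs. ND limma called 0 of 4 proteases, with 0 at an unadjusted p under 0.05, and in PRF 50 vs. ND 0 of 5, with 3.

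Hepatocyte transcription factors had 0 of 10 called by limma in each comparison, with 7 at an unadjusted p under 0.05 in HFD vs. ND, 1 in PRF 50 vs. HFD and 4 in PRF 50 vs. ND. Their median log2 difference was -0.38 in HFD vs. ND, against -0.01 over all genes, and Cebpa, a regulator of hepatocyte genes, had -0.55 ± 0.14 (limma, adjusted p = 0.121). Genes of secretory quality control, the chaperones and degradation factors through which alpha-1-antitrypsin passes, had 0 of 15 called by limma in each comparison (0, 2 and 0 at an unadjusted p under 0.05 in PRF 50 vs. HFD, HFD vs. ND and PRF 50 vs. ND). Hsp90b1 and Calr, the most abundant, differed by -0.07 and -0.01 in PRF 50 vs. HFD.

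Markers of other liver cells were read beside these lists. Of 8 Kupffer cell and macrophage markers, 7 were called higher in PRF 50 vs. HFD by limma, with a median log2 difference of 1.45. Against ND, limma called 0 of 8, with 8 at an unadjusted p under 0.05. Their summed level was 345, 202 and 238 FPKM in PRF 50 mice 3, 9 and 10, against 57.5 to 103 in HFD and 46.7 to 122 in ND mice, with Cd5l the most abundant and none at 0. Neutrophil markers, of which 7 of 8 were in the tables (not Ly6g), summed to 56.9 and 19.0 FPKM in PRF 50 mice 3 and 9, to 3.70 in PRF 50 mouse 10, and to between 2.84 and 9.49 in the other 6 mice, with S100a8 the most abundant. Summed Kupffer cell markers overlapped between ND and HFD mice. The part of macrophages and neutrophils in the serpin values was not tested. Stellate cell (63.6 to 143 FPKM, Dcn most abundant) and sinusoidal endothelial markers (26.7 to 112, Clec4g) overlapped between all groups in their sums. By single gene in HFD vs. ND, limma called 0 of 8 sinusoidal endothelial markers, with 3 at an unadjusted p under 0.05, 1 of 8 higher and a median of -0.71. Of 8 stellate cell markers limma called 0, with 2 at an unadjusted p under 0.05, 6 higher and a median of 0.23, and the 3 HFD mice lay apart from the ND mice for 2 of them, against 20.7% of all genes. Cholangiocyte markers (25.8 to 42.1, Spp1) were higher in all PRF 50 than in all ND mice through Spp1 alone, as the sums without it overlapped. Lymphocyte markers (1.19 to 4.44, Nkg7) were lower in all HFD than in all ND mice, but 0 of 6 reached the minimum level in any comparison. Other pairs of groups overlapped for both.

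In PRF 50 vs. ND, where none of the 10 genes was called, the largest differences were those of Serpina3n and Serpina3m, both higher. Serpina1a (-0.02), Serpina3k (0.01) and Serpina6 (-0.08) differed by less than 0.1 on the log2 scale, and under quantile normalization their differences changed sign to 0.10, -0.28 and 0.05. The 95% confidence interval of Serpina1b, -0.44 to 0.33, excluded a 2-fold difference in either direction, as did those of Serpina1a (-0.47 to 0.44), Serpina1c (-0.71 to 0.31) and Serpina1d (-0.71 to 0.08). The interval of Serpina1e, -0.41 to 0.99, reached close to a 2-fold higher level in PRF 50.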

How the data were processed

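Liver RNA-Seq of 9 mice, 3 per group, was used, with groups and mouse numbers taken from the labels. The authors selected poly(A) RNA, made strand-specific libraries, sequenced paired ends, trimmed reads, mapped them with TopHat to mm10 per the labels, estimated FPKM with Cufflinks, and applied a geometric normalization; versions, annotation and treatment of multiply mapped reads are not given in the sources used here. The authors deposited 1 log2 value per gene and mouse, read here as log2(FPKM + 1), with a constant inferred from the lowest value. Median-of-ratios size factors computed from these values lay between 0.998 and 1.01. No 2 mice shared identical values above 0 (0% of genes in any pair). Counts were not used here, so absolute depth and counting error are unknown.

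Groups were compared with limma (version 3.58.1; lmFit and eBayes with a trend) in R 4.3.3 on log2 values of 6 mice, without covariates, for genes with a back-transformed mean of at least 1 FPKM, and all adjusted p-values are Benjamini-Hochberg values from limma. Differences are on the log2(FPKM + 1) scale, which understates the change of low genes. Fits were tested on simulated data. Genes named are the 10 serpins, called genes of each list (at most 4 with the smallest p, or the 2 most abundant if none was called), other clade A serpins, genes sharing identical windows, and the 5 genes most like each of the 2 serpins with the largest range of group means. Moxd1, Mup20, Cyp4a12b, Elovl3, Cyp4a12a, Cyp2d9, Orm1, Prtn3, Ctsg, Elane and the further genes of the last remarks were named after their values were seen. Members and lists were chosen with earlier results of these data known. Identity and shared windows were computed from GENCODE M21 transcripts and promoters taken from RefSeq, both on GRCm38, in Python 3.11.15. Fits were repeated without single mice, with a pseudocount of 0.1, with no minimum level or one of 10 FPKM, after scaling by median-of-ratios or by quantile normalization, with eBayes lacking the trend, and jointly over all 9 mice.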

Additional observations from a re-analysis of the deposited data

How the results depend on the processing

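Of 390 log2 differences of the 10 genes under alternatives, 349 kept their direction and side of the threshold, 24 lost the call, 1 gained it and 16 changed sign, all 16 among differences that were not called. For PRF 50 vs. HFD the sign changed for Serpina1b without HFD mouse 1 (0.11; lowest value -0.24 without HFD mouse 3), for Serpina1d without HFD mouse 1 (0.0870) and PRF 50 mouse 3 (0.05; lowest -0.17), and for Serpina7 without PRF 50 mouse 10 (0.14; lowest -0.91 without PRF 50 mouse 9). For HFD vs. ND it changed for Serpina1b without HFD mouse 1 (-0.17) and ND mouse 9 (-0.06; highest 0.19 without HFD mouse 3). For PRF 50 vs. ND it changed for Serpina1a without ND mouse 6 (0.17) and under quantile normalization (0.10; lowest -0.18 without ND mouse 9), for Serpina1b without PRF 50 mouse 3 (0.00658; lowest -0.13 without ND mouse 9), and for Serpina1e without PRF 50 mouse 10 (-0.0185; highest 0.47 without PRF 50 mouse 9). In that comparison it also changed for Serpina3k without ND mouse 6 (-0.03), without PRF 50 mouse 10 (-0.27) and under quantile normalization (-0.28), and for Serpina6 without ND mouse 6 (0.24), without PRF 50 mouse 10 (0.06) and under quantile normalization (0.0502; lowest -0.29 without ND mouse 9).

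Leaving out single mice gave 15 to 242 genes called in PRF 50 vs. HFD (362 with all mice), 35 to 140 in HFD vs. ND (133) and 4 to 71 in PRF 50 vs. ND (46). Of the 10 serpins, 0 to 1, 0 to 3 and 0 to 1 were then called (1, 4 and 0). Genes past p and fold numbered 168 to 253, 111 to 164 and 131 to 239 (212, 134 and 177). With no minimum level, 126, 37 and 11 genes were called, and 1 of the 10 serpins in HFD vs. ND, where more genes are tested. With all 9 mice in 1 fit, 2 of 10 serpins were called in HFD vs. ND and 107 genes in PRF 50 vs. ND. Genes past p and fold numbered 372, 216 and 289 with a pseudocount of 0.1, and 106, 68 and 97 with a minimum of 10 FPKM, where fewer genes are tested. Apart from fewer mice or other numbers of genes, the cause was not tested. The summed FPKM of both paralog sets moved by less than 1 SD under median-of-ratios scaling. No paired analysis was made, because the groups hold separate mice and equal numbers do not pair animals. With 3 mice per group and no counts, differences of low genes are the least certain, and shared reads among paralogs cannot be resolved from these files.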

Other observations

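PRF 50 mouse 10 stood apart from mice 3 and 9 in several genes, which were chosen after their values were seen. Serum amyloid A genes Saa1 and Saa2 had log2 values of 12.46 and 11.51 in mouse 3, 11.52 and 10.47 in mouse 9, and 6.73 and 5.21 in mouse 10, while ND mice lay between 6.49 and 7.03 for Saa1 and between 5.18 and 5.73 for Saa2. Haptoglobin (Hp) was 13.37, 12.29 and 10.61 in the same order. The transcription factor gene Onecut1 was 1.76, 1.98 and 4.25, against 3.52 to 4.64 in ND and 2.06 to 2.61 in HFD mice, and the repressor gene Bcl6 was 3.72, 4.48 and 1.55, against 1.15 to 1.59 in ND mice. Among the serpins, mouse 10 was the highest of its group in Serpina1b, Serpina1d, Serpina1e and Serpina3k, the lowest in Serpina1a, Serpina3m, Serpina3n, Serpina6 and Serpina7, and between the other mice in Serpina1c. With 3 mice per group such places are common and do not by themselves set a mouse apart. For Serpina1a, all PRF 50 mice lay between 1259 and 1299.5 FPKM.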
